A study of Mus musculus with 12 samples.

Results

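The genes described are 8 transcription factors that set and keep the identity of gut epithelium: Cdx1, Cdx2, Hnf4a, Hnf4g, Klf4, Klf5, Elf3 and Sox9. They were taken by symbol from 12098 genes in the deposited tables. Of the 8, 6 were listed in at least 1 library and 5 (Cdx1, Cdx2, Klf4, Klf5 and Sox9) in all 12. Hnf4a was listed in 5 short-fragment libraries, and Hnf4g and Elf3 had no value in the 12 tables.

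Cdx1 and Cdx2 are caudal-type homeobox factors of the intestine, and Cdx2 is required for intestinal identity during development. Hnf4a and Hnf4g are nuclear receptors that keep enterocyte genes active. Klf5 is a zinc finger factor of proliferating crypt cells, Klf4 its relative in cells that have left the cycle and in goblet cells, Elf3 an epithelial ETS factor, and Sox9 an HMG-box factor of the crypt base. Promoters rich in CpG are mostly unmethylated in normal tissue, and methylation of such a promoter is usually found together with a silent gene. Expression was not measured here.

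The libraries were reduced representation bisulfite libraries, made from DNA digested at CCGG by the enzyme MspI, of which a size class is kept before bisulfite turns unmethylated cytosine into uracil. The DNA came from epithelial cells of the colon of C57BL/6 mice. In 3 induced mice Dnmt3b, a methyltransferase that adds methyl groups to unmethylated CpGs, was induced with 0.5 g/l doxycycline in the drinking water for 3 months, while the 3 control mice had water without the drug. Fragments of 40 to 120 nt (short) and of 120 to 220 nt (long) were made into separate libraries for each of the 6 mice. The labels give neither the age of the mice nor the promoter that drives Dnmt3b, and they do not say whether control mice carried the inducible gene. Doxycycline went to the induced mice alone, so the drug and the induction cannot be told apart. Levels are the mean CpG methylation of a gene's RefSeq promoters in percent, differences are induced minus control in percentage points, and how many reads a level rests on is unknown.

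The libraries listed 10358 to 10838 genes among short and 7278 to 8108 among long fragments. Over the genes with a value in all 6 libraries of a fraction, the library mean was 16.3% to 18.4% in induced and 3.81% to 4.39% in control mice for short fragments (10027 genes). For long fragments it was 18.3% to 21.2% in induced and 4.78% to 5.46% in control mice (6127 genes). A gene was called changed at an adjusted p under 0.05 in limma, a linear model fitted to all genes of a fraction with pooled information on their spread. By that rule 27.6% of genes were called higher in induced mice among short and 23.2% among long fragments, while 0.0798% and 0.0163% were called lower. The number of calls fell in both fractions whichever control mouse was left out. Without control mouse 1, 2 or 3 the 1422 genes called changed among long fragments became 905, 885 and 897. The 2773 genes called among short fragments became 2227, 2309 and 2230.

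The promoters of Cdx1, Cdx2, Klf4, Klf5 and Sox9 were nearly unmethylated in induced mice as well as in controls. None of the 5 was called higher or lower in either fraction by limma, and at an unadjusted p under 0.05 the count was 0 among short and 1 (Sox9) among long fragments. Their 60 values had a median of 0.04% and a maximum of 3.28%. Of the 30 values in induced mice 9 were 0% and 5 were 1% or more, and of the 30 values in control mice 10 were 0% and 3 were 1% or more. The mean over the 5 genes ranged over 0.224% to 0.530% in induced and 0.136% to 0.362% in control libraries of short fragments, and over 0.290% to 0.802% in induced and 0.0260% to 0.622% in control libraries of long fragments. The median change of the 5 was -0.05 points among short and 0.24 points among long fragments, beside 0.50 and 0.943 points over all tested genes. Most genes that start this low did not rise either. Among genes under 1% in control mice 14.8% of 7127 were called higher in the short and 12% of 4177 in the long fraction, so 5 genes without a call are not set apart from that background.

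**Figure D1:**
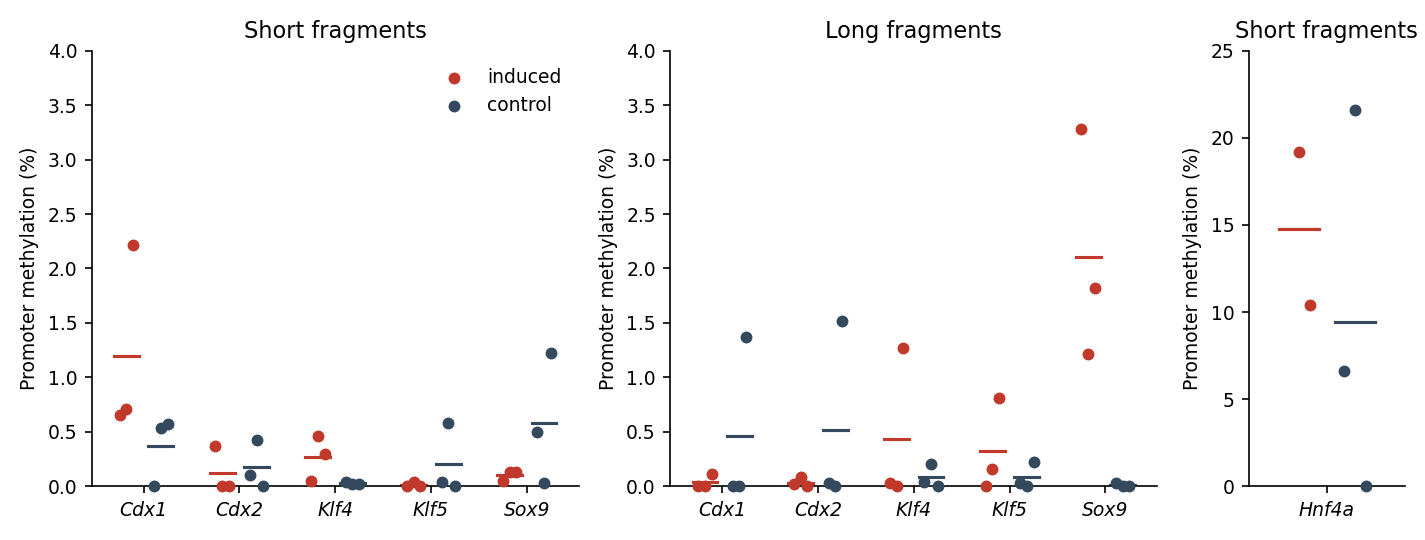
Promoter methylation in percent (y axis, from 0) of Cdx1, Cdx2, Klf4, Klf5 and Sox9 in short- and long-fragment libraries and of Hnf4a in short-fragment libraries, on a wider axis; each point is 1 mouse, induced left of control, and bars are means. The 60 values of the first 5 genes lie at or under 3.28%, and Hnf4a is at 10.38% and 19.20% in 2 induced and at 0% to 21.62% in 3 control mice.

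Cdx2 (Gene ID 12591) lay near 0% in each group. Among short fragments it was at 0.37%, 0% and 0% in induced mice 1, 2 and 3 and at 0.10%, 0.42% and 0% in control mice 1, 2 and 3. The groups overlapped, and the mean of the induced mice was 0.123% ± 0.214 against 0.173% ± 0.219 in controls (SD, n = 3 each). The difference of -0.05 points had a 95% interval of -0.51 to 0.41 points (limma, adjusted p = 0.884). In the long fraction the levels were 0.02%, 0.08% and 0% in induced and 0.03%, 0% and 1.52% in control mice, a difference of -0.48 points with an interval of -1.76 to 0.80 (limma, adjusted p = 0.586). The value of 1.52% in control mouse 3 carries that difference: without this library it was 0.02 points.

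Cdx1 (12590) lay at or under 2.22%. Among short fragments it was at 0.65%, 0.71% and 2.22% in induced mice and at 0%, 0.53% and 0.57% in control mice 1, 2 and 3. The groups did not overlap, with the induced mice higher, which was so for 39.5% of all genes in this fraction. The difference of 0.83 points had an interval of -0.55 to 2.20 (limma, adjusted p = 0.389). Without induced mouse 3, the highest, it was 0.313 points. Among long fragments the direction was the other one, with 0%, 0% and 0.11% in induced and 0%, 0% and 1.37% in control mice and a difference of -0.42 points (interval -1.59 to 0.75; limma, adjusted p = 0.591). Without control mouse 3, which also held the highest Cdx2 value, that difference was 0.04 points.

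The sequence at the start of Cdx2 and of its nearest neighbour Pdx1 is shown because the genes lie next to each other and their methylation levels differ. Each run holds 250 bases before and 50 after a gene start, 5′ to 3′ on the gene's strand, from RefSeq on GRCm38.p6, with each CpG in capitals. The Cdx2 window is chr5:147307200-147307499, minus strand, and the Pdx1 window is chr5:147269847-147270146, plus strand.
Cdx2: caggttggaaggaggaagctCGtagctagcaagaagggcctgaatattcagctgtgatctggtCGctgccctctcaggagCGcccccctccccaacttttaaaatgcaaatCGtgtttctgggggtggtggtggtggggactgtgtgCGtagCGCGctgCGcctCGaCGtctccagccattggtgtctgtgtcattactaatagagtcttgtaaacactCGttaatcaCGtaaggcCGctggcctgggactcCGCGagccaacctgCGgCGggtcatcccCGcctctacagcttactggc
Pdx1: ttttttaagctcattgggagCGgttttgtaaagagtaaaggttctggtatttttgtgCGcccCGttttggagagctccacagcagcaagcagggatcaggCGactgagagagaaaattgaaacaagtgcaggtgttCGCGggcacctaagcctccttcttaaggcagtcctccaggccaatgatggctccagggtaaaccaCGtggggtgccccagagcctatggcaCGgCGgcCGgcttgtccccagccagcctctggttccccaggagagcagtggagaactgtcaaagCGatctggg

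The Cdx2 window holds 18 CpGs, a number reached by 29.7% of all 32851 windows of the RefSeq table, and the Pdx1 window 11, reached by 41.4%. The MspI site CCGG, which reads the same on both strands, occurs in 52.8% of windows, 0 times in the Cdx2 window and 1 time in the Pdx1 window. A stretch of 300 bases without CCGG lies inside a fragment longer than both size classes, so the CpGs measured for Cdx2 lie outside these bases. In the Pdx1 run the stretch before the CCGG site is also longer than both size classes. Most of the 11 CpGs shown for Pdx1 therefore lie outside the fragments measured. The authors' promoter window is not given in the sources used here.

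Cdx2, Pdx1 and Gsx1 lie side by side in the mouse genome as the ParaHox cluster, and of the 3 Cdx2 alone was not called. Pdx1 (18609), a factor of pancreas and duodenum, was at 87.34%, 60.05% and 62.83% in induced and at 29.40%, 30.34% and 30.68% in control mice 1, 2 and 3 among short fragments, without overlap. It rose by 39.9 points there (limma, adjusted p = 0.0245). In the long fraction it averaged 63.7% ± 6.88 in induced and 42.2% ± 2.04 in control mice (SD, n = 3 each; limma, adjusted p = 0.0214). Gsx1 (14842), a homeobox factor of the neural tube, was at 53.77%, 68.77% and 77.09% in induced and at 3.12%, 1.56% and 2.11% in control mice among short fragments (limma, adjusted p = 0.00223). On the other side Flt3 (14255), a receptor of blood progenitors, was at 45.01% ± 12.4 in induced and 1.49% ± 1.79 in control mice (SD, n = 3 each; limma, adjusted p = 0.00998), and Pan3, a deadenylase subunit, was under 1% in every library of each group. The short-fragment call of Pdx1 was lost without induced mouse 3 or control mouse 1, 2 or 3 (adjusted p = 0.0520, 0.0950, 0.0903 and 0.0907), and its long-fragment call without the same mice (adjusted p = 0.0706, 0.09, 0.0773 and 0.0846). Flt3 lost its call without control mouse 1 (adjusted p = 0.0507). The neighbours were chosen after their values were seen, and differences between the changes of neighbouring genes were not tested.

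**Figure D2:**
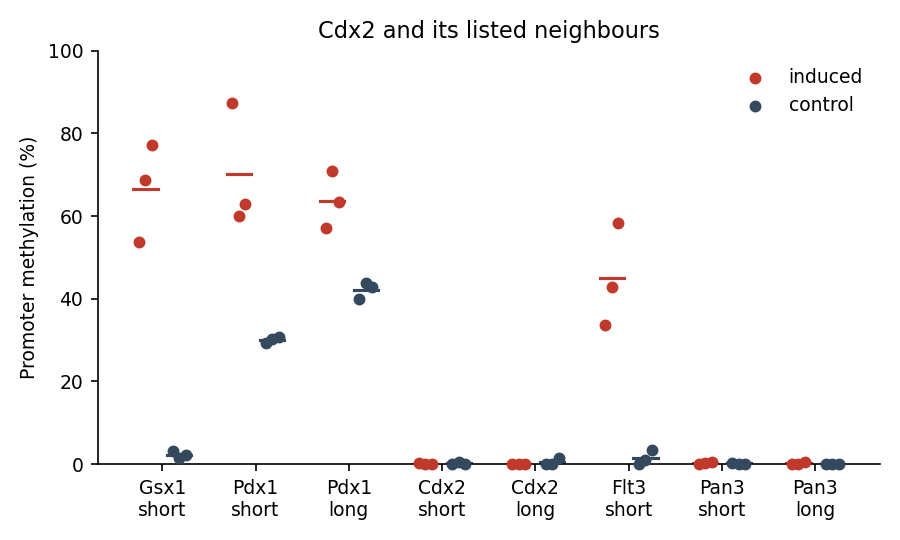
Promoter methylation in percent (y axis, 0 to 100) of Cdx2 and the 2 nearest genes on each side that were tested in at least 1 fraction, in gene order, with the fraction named under each gene; points are mice, induced left of control, and bars are means. Cdx2 and Pan3 lie near 0% in each group, while Gsx1, Pdx1 and Flt3 are higher in all 3 induced mice than in the controls.

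Other neighbours gave a similar mixture, and those named here were chosen after their values were seen. Next to Cdx1, the long-fragment values of the amino acid transporter gene Slc6a7 were 88.9% ± 7.27 in induced and 37.3% ± 6.76 in control mice (SD, n = 3 each; limma, adjusted p = 0.00448). The testis gene Actl7b beside Klf4 was at 95.7% ± 2.66 in induced and 95.9% ± 2.79 in control mice among short fragments (SD, n = 3 each), against levels under 1% for Klf4 in the same libraries. Beside Klf5, Pibf1 and Dis3 had the same values as each other, at 2.37% ± 2.06 in induced and 0.887% ± 1.38 in control mice among short fragments (SD, n = 3 each), and did not pass (limma, adjusted p = 0.564). Around Sox9, Kcnj2 rose by 7.68 points among short and Sstr2 by 23.8 points among long fragments (limma, adjusted p = 0.0127 and 0.0286). Slc39a11 among short and Abca5 among long fragments did not pass there (limma, adjusted p = 0.185 and 0.584). The Sox9 neighbours were not refitted with mice left out.

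Klf4 (16600) had the lowest control mean of the 5 genes among short fragments. Among short fragments it was at 0.05%, 0.46% and 0.30% in induced and at 0.04%, 0.02% and 0.02% in control mice 1, 2 and 3, again without overlap. The difference of 0.24 points had an interval of -0.08 to 0.56 (limma, adjusted p = 0.271). Without induced mouse 1 it was 0.35 points and passed the threshold, with adjusted p = 0.0343 (0.0343 to 0.736 over 11 alternatives). Among long fragments Klf4 was at 0.03%, 0% and 1.27% in induced and at 0.04%, 0.20% and 0% in control mice, a difference of 0.35 points (interval -0.73 to 1.43; limma, adjusted p = 0.617), which was -0.065 points without induced mouse 3.

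Klf5 (12224) overlapped between the groups in each fraction. Among short fragments it was at 0%, 0.04% and 0% in induced and at 0.04%, 0.58% and 0% in control mice, a difference of -0.19 points (interval -0.68 to 0.29; limma, adjusted p = 0.568). Control mouse 2 stands apart there, and without it the difference was -0.0067 points, while without control mouse 3 it was -0.30 points. Among long fragments Klf5 was at 0%, 0.16% and 0.81% in induced and at 0.03%, 0% and 0.22% in control mice, a difference of 0.24 points (interval -0.42 to 0.90; limma, adjusted p = 0.590), which was -0.0033 points without induced mouse 3.

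The Klf4 window (chr4:55532426-55532725, minus strand) is set beside that of Sox1 (chr8:12395269-12395568, plus strand), the relative of Sox9 with the largest rise among short fragments, because both are dense in CpG, and Sox1 was called higher while Klf4 was not. CpGs are again in capitals, and both runs are from RefSeq on GRCm38.p6.
Klf4: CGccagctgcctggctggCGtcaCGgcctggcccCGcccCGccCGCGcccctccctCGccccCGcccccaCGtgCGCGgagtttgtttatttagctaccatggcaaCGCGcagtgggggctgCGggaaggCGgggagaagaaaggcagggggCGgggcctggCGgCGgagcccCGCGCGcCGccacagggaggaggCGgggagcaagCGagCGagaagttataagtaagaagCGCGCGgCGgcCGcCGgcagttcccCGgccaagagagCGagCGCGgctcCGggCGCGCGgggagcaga
Sox1: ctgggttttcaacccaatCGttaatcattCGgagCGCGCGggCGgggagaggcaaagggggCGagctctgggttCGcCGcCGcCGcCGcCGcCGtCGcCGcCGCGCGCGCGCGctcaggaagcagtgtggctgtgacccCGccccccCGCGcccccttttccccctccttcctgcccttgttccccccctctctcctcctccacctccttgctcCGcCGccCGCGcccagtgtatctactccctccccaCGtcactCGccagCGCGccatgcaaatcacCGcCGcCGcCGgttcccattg

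The Klf4 window holds 40 CpGs, a number reached by 3.91% of all windows, and the Sox1 window 37, reached by 5.58%. CCGG occurs 3 times in the Klf4 window, 11 and 24 bases apart, and 1 time in the Sox1 window, near the end of each run. The stretch before these sites lies inside a fragment longer than both size classes. Most CpGs shown for Klf4 and Sox1 therefore lie outside the fragments measured. Of the tested genes whose window holds at least as many CpGs as that of Klf4, 26.5% of 873 were called higher among short and 19.5% of 631 among long fragments, beside 27.6% and 23.2% of all genes. With at least as many as Cdx2 the shares were 23.3% of 5922 and 19.4% of 3716.

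Sox9 (20682) gave the largest difference of the 5 genes, among long fragments. There it was at 3.28%, 1.21% and 1.82% in induced and at 0.03%, 0% and 0% in control mice 1, 2 and 3. The groups did not overlap, as for 38.2% of all genes in this fraction. The difference of 2.09 points had an interval of 0.53 to 3.66, with an unadjusted p = 0.0195 and an adjusted p = 0.0759 in limma, and did not pass. It did pass on an arcsine scale (adjusted p = 0.00881), in 1 fit over both fractions (adjusted p = 0.00911) and without induced mouse 1 (adjusted p = 0.0211). Over 11 alternatives the adjusted p ran from 0.00881 to 0.213. A level of this size in bulk DNA can come from few cells or from few CpGs, which cannot be told apart.

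Among short fragments Sox9 was at 0.05%, 0.13% and 0.13% in induced and at 0.50%, 0.03% and 1.22% in control mice. The induced mice lay within the range of the controls, and the difference of -0.48 points had an interval of -1.36 to 0.40 (limma, adjusted p = 0.441). Without control mouse 3 it was -0.16 points, and without control mouse 2 it was -0.76 points (limma, unadjusted p = 0.0499, adjusted p = 0.167). The change of Sox9 among long fragments exceeded that among short fragments by 2.57 points, which did not pass in the test of this difference (limma interaction with mouse as a random block, adjusted p = 0.0714, and 0.186 with mouse as a fixed effect). None of the other 4 genes passed that test either (adjusted p = 0.483 to 0.926), beside 4.71% of the 5309 genes in all 12 libraries, and no unadjusted p of these 4 was under 0.05.

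**Figure D3:**
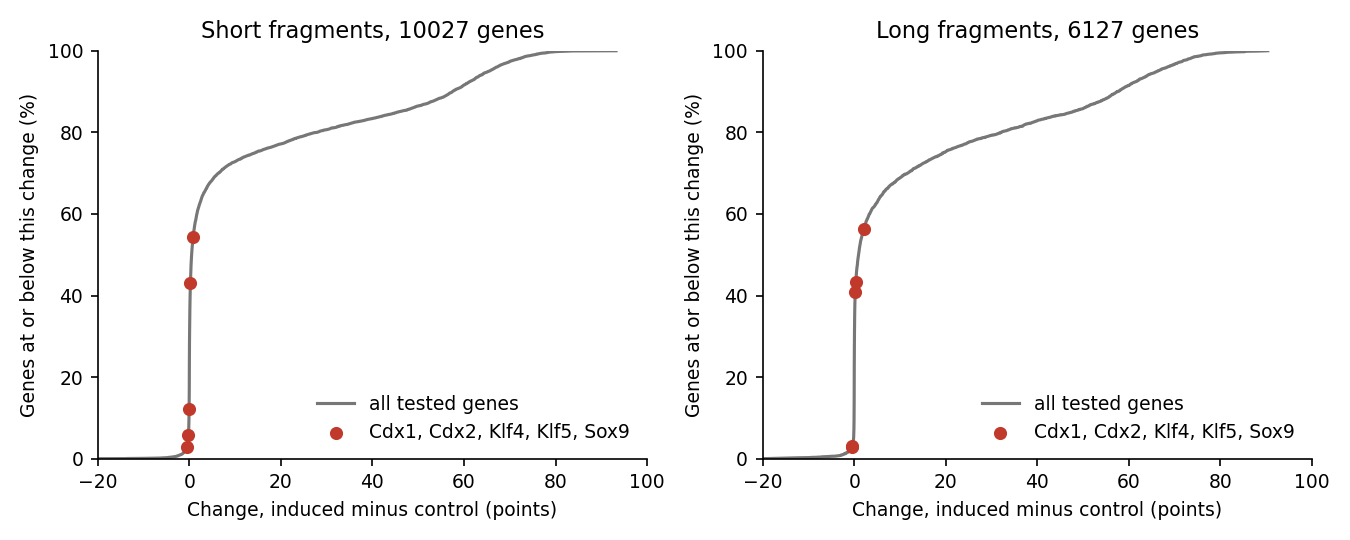
Share of tested genes in percent (y axis) at or below a given change in promoter methylation (x axis, induced minus control, percentage points) in each fraction; red points mark Cdx1, Cdx2, Klf4, Klf5 and Sox9 on the curve of all genes. All 5 lie on the steep part near 0, with changes of -0.48 to 0.83 points among short and -0.48 to 2.09 points among long fragments.

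Hnf4a (15378) was the exception in level. It was at 19.20% and 10.38% in induced mice 2 and 3 and not listed in induced mouse 1, against 6.62%, 21.62% and 0% in control mice 1, 2 and 3. The groups overlapped and the control mice alone covered the whole range of the induced ones. With genes in at least 2 libraries per group admitted, the difference was 5.38 ± 8.25 points (SE; limma, adjusted p = 0.707), fitted without the missing library. RefSeq holds 2 start windows for Hnf4a, each with 4 CpGs, a number that 68.6% of all windows reach. In the first window 2 CCGG sites lie 52 bases apart, within the short size class, and the second has none. The table does not tie either window to the promoter listed in the files. Among long fragments Hnf4a had no value. The Elf3 window holds 12 CpGs and 1 CCGG.

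Other transcription factors of gut epithelium and its lineages, 60 names, divided into genes near 0% and genes that rose strongly. Among short fragments 19 of 44 tested rose and none fell (43.2%, beside 27.6% of all genes), with a median change of 3.13 points beside 0.50. Among long fragments 15 of 36 rose and none fell (41.7%, beside 23.2%), with a median change of 7.19 points beside 0.943. The largest rises among short fragments were those of Meis1, a TALE homeobox factor, at 77.4% ± 7.23 in induced and 3.83% ± 2.68 in control mice, the neural crest factor Foxd3 at 73.6% ± 9.77 and 3.30% ± 0.353, Gata5 at 78.1% ± 11.8 and 11.04% ± 3.21, and the endocrine factor Nkx2-2 at 66.1% ± 8.90 and 2.94% ± 1.56 (SD, n = 3 each; limma, adjusted p = 0.000526 to 0.00218). Among long fragments Gfi1, a factor of secretory cells, was at 80.3% ± 8.36 in induced mice and 0% in all 3 control mice (limma, adjusted p = 0.00108). Foxd3, Gata5 and Meis1 rose there too, by 75.95, 71.04 and 66.5 points. Gata5 lost that call without induced mouse 2 or 3 (adjusted p = 0.0700 and 0.0514) or control mouse 1, 2 or 3 (adjusted p = 0.0838, 0.0805 and 0.0826), and Meis1 without the same mice (adjusted p = 0.110, 0.107, 0.133, 0.133 and 0.125).

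The gut factors of the GATA and FOXA families and of Wnt and Notch signalling in this list did not share a level. Those named here were chosen after their values were seen. Gata4, a factor of the proximal gut, rose to 36.3% ± 6.74 in induced mice against 2.90% ± 2.53 in controls among short fragments, and to 61.0% ± 10.8 against 4.36% ± 1.24 among long fragments (SD, n = 3 each; limma, adjusted p = 0.00369 and 0.00442). Foxa2, an endoderm factor, rose among long fragments, at 5.11% ± 1.61 in induced and 0.0367% ± 0.0635 in control mice (SD, n = 3 each; limma, adjusted p = 0.0188). It lost that call without induced mouse 1 or 3 (adjusted p = 0.0514 and 0.0603) or control mouse 1, 2 or 3 (adjusted p = 0.0789, 0.0797 and 0.0806) and in 1 fit over both fractions (0.0590). Among short fragments its change of 5.21 points did not pass (adjusted p = 0.211, and 0.0418 on the arcsine scale). Others were under 1% in each group. Gata6 was at 0.343% ± 0.0493 in induced and 0.24% ± 0.216 in control mice among short fragments (SD, n = 3 each). Tcf7l2, the Wnt-pathway partner of beta-catenin, was at 0.0467% ± 0.0252 in induced and 0.0333% ± 0.0153 in control mice, and Hes1, a Notch target, at 0.143% ± 0.0569 and 0.0367% ± 0.0115 (SD, n = 3 each). None of these 3 passed in limma among short (adjusted p = 0.271 to 0.881) or long fragments (adjusted p = 0.584 to 0.676).

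Relatives of the 8 genes by family, 39 names, included many Sox genes that rose and few Klf genes that did. Among short fragments 12 of 25 tested rose (48%, beside 27.6% of all genes) and among long fragments 7 of 21 (33.3%, beside 23.2%), and none fell. The median changes were 6.16 and 4.64 points, beside 0.50 and 0.943 over all genes. Of the Sox genes 10 of 13 rose among short and 6 of 11 among long fragments, with median changes of 51.1 and 56.1 points, and of the Klf genes 2 of 11 and 1 of 8, with medians of 0.02 and 0.55 points. Sox1, a factor of the neural plate, was at 79.2% ± 10.3 in induced and 0.523% ± 0.505 in control mice among short fragments, Sox2 at 74.7% ± 5.76 and 1.89% ± 0.852, Sox11 at 70.2% ± 8.49 and 1.81% ± 1.02, and the endoderm factor Sox17 at 65.9% ± 10.5 and 1.72% ± 2.11 (SD, n = 3 each; limma, adjusted p = 0.000294 to 0.00165). Among long fragments Sox18 was at 82.6% ± 7.94 in induced and 6.67% ± 5.57 in control mice, and Sox7 at 72.1% ± 8.32 and 2.54% ± 1.98 (SD, n = 3 each; limma, adjusted p = 0.00159 and 0.00148).

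Sox11 changed by 56.9 points among long fragments and did not pass (limma, adjusted p = 0.0919). Sox1 and Sox2 did rise there, by 70.7 and 69.2 points. Sox1 lost that call without induced mouse 2 (adjusted p = 0.0725) or control mouse 1, 2 or 3 (adjusted p = 0.0823, 0.0815 and 0.0805), and Sox2 without induced mouse 1 or 3 (adjusted p = 0.0962 and 0.133) or control mouse 1, 2 or 3 (adjusted p = 0.147, 0.145 and 0.147). The Klf genes that rose among short fragments were Klf2, at 21.8% ± 1.59 in induced and 0.433% ± 0.386 in control mice, and Klf15, at 32.8% ± 5.97 and 2.07% ± 1.18 (SD, n = 3 each; limma, adjusted p = 0.000283 and 0.00284). Among long fragments Klf2 was at 26.6% ± 11.1 in induced and 25.6% ± 4.50 in control mice (SD, n = 3 each). Klf15 changed by 9.48 points there and did not pass (limma, adjusted p = 0.313). The Klf gene called among long fragments was Klf3, which rose by 19.5 points (limma, adjusted p = 0.0192). Leaving out each mouse gave Klf3 an adjusted p of 0.0144 to 0.0821. Its change among short fragments was 0.017 points and did not pass. Cdx4, the third Cdx gene, which is X-linked, was at 83.3% ± 8.48 in induced and 78.7% ± 10.6 in control mice among long fragments (SD, n = 3 each; limma, adjusted p = 0.722), far above Cdx1 and Cdx2 in the same libraries. Klf2, Klf3, Klf15 and Cdx4 were chosen after their values were seen.

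**Figure D4:**
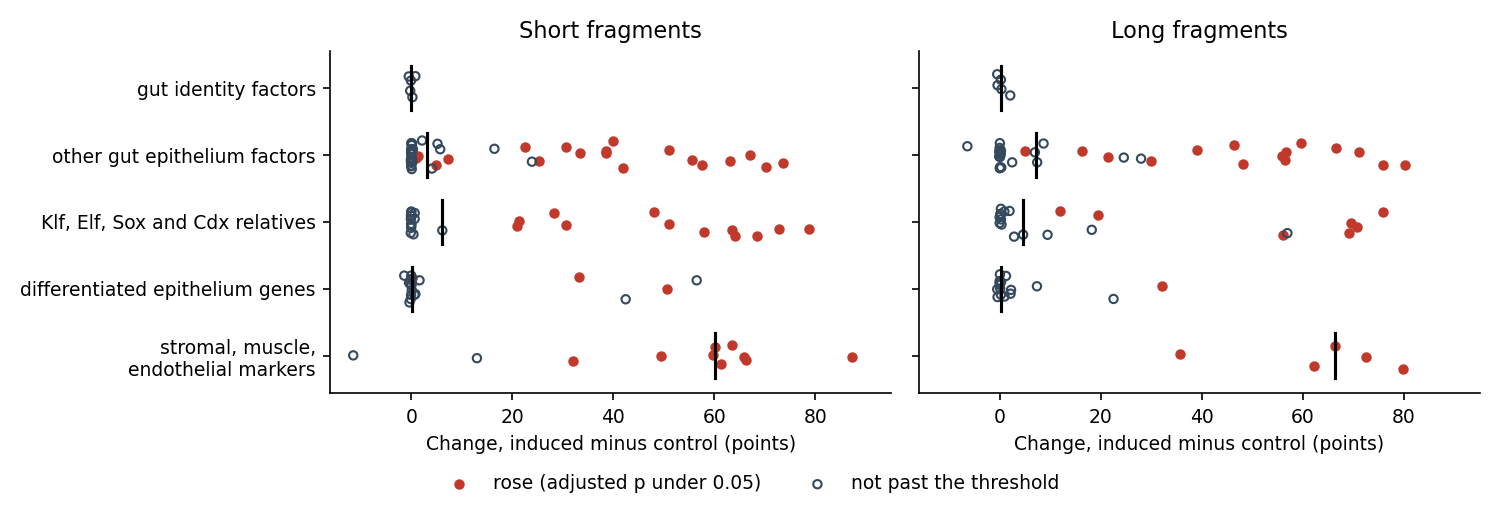
Change in promoter methylation (x axis, induced minus control, percentage points) of each tested gene in 5 lists (rows) in each fraction; filled red points rose at an adjusted p under 0.05, open points did not pass, and vertical bars are medians. The gut identity factors lie between -0.48 and 2.09 points, while the other gut factors and the family relatives spread up to 80.3 and 78.6 points.

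Genes of the differentiated colon epithelium, 57 names that include Cdx1 and Cdx2, had an induced mean under 1% in 12 of 18 cases among short and 9 of 16 among long fragments, beside 52.1% and 47.0% of all tested genes. Among short fragments 3 of 18 rose and none fell (16.7%, beside 27.6% of all genes), with a median change of 0.083 points beside 0.50. Among long fragments 1 of 16 rose and none fell (6.25%, beside 23.2%), with a median change of 0.263 points beside 0.943. Cldn4, a tight junction gene, was at 64.2% ± 13.6 in induced and 13.7% ± 8.54 in control mice among short fragments, and Slc9a3, the sodium-proton exchanger of enterocytes, at 34.3% ± 10.1 and 1.17% ± 1.16 (SD, n = 3 each; limma, adjusted p = 0.0138 and 0.0124). Cldn4 lost its call without control mouse 1 or 3 (adjusted p = 0.0537 and 0.0540), and Slc9a3 without induced mouse 3 or control mouse 1, 2 or 3 (adjusted p = 0.0512, 0.0541, 0.0553 and 0.0581). Muc1 and Espn, with differences of 56.5 and 42.4 points, did not pass there (limma, adjusted p = 0.0563 and 0.0569). Both passed without induced mouse 1 (adjusted p = 0.00154 for Muc1 and 0.00216 for Espn), on the arcsine scale (0.0292 and 0.0193) and with a variance trend (0.0349 and 0.0358), and Espn also in 1 fit over both fractions (0.00829). Espn was called among long fragments, at 52.5% ± 6.86 in induced and 20.3% ± 11.9 in control mice (SD, n = 3 each; limma, adjusted p = 0.0458), and lost the call whichever mouse was left out (adjusted p = 0.0509 to 0.142). Slc9a3, Krt18 and Cdh1 had the next largest changes among long fragments, of 22.5, 7.38 and 2.25 points, and did not pass (limma, adjusted p = 0.157, 0.163 and 0.440). Slc9a3 passed there without induced mouse 1 (31.2 points, adjusted p = 0.00120), on the arcsine scale (0.0426) and in 1 fit over both fractions (0.0371). Cdh1 passed without control mouse 3 (3.74 points, adjusted p = 0.0302) and was at 1.25 points without control mouse 1.

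The label of epithelial cells can be set beside promoter levels only, and these do not tell cell types apart. In control libraries of long fragments the stromal, muscle and endothelial markers, at 0.828% to 3.00%, were lower than the epithelial markers, at 5.70% to 6.58%. Among short fragments they were higher, at 8.51% to 9.77% against 0% to 2.35%. Of 9 epithelial marker genes Cdh1 and Epcam were tested among short fragments, with a mean over both of 0% to 0.415% in induced and 0% to 2.35% in control libraries, and with Krt8 and Krt18 4 were tested among long fragments, at 7.56% to 9.86% in induced and 5.70% to 6.58% in control libraries. Epcam was at 0% in all 3 control mice of each fraction. Cdh1 averaged 1.59% ± 2.68 among short and 2.06% ± 2.625 among long fragments in control mice (SD, n = 3 each). Krt8 averaged 0.04% ± 0.0693 and Krt18 22.8% ± 2.91 in control mice among long fragments (SD, n = 3 each), so Krt18 carries most of the long-fragment mean. Of 28 stromal, muscle and endothelial markers 9 of 11 rose among short fragments (27.6% of all genes), at a mean of 53.4% to 64.5% in induced and 8.51% to 9.77% in control libraries, and 5 of 5 among long fragments (23.2% of all genes), at 51.7% to 76.6% in induced and 0.828% to 3.00% in control libraries. Esam, Myh11, Cnn1 and Kdr had the largest changes among short fragments (63.4 to 87.3 points) and Cldn5, Flt1, Pdgfra and Des among long ones (62.2 to 79.8 points). The long-fragment calls of Pdgfra and Des were lost without induced mouse 2 (adjusted p = 0.0654 and 0.119) or any control mouse (adjusted p = 0.0766 to 0.0781 and 0.134 to 0.142), and that of Des also without induced mouse 3 (adjusted p = 0.113). Of 34 immune markers 1 was tested in each fraction. Lck was at 0.113% ± 0.196 in induced and 0.37% ± 0.641 in control mice among short fragments, and Coro1a at 73.6% ± 7.48 in induced and 12.6% ± 4.99 in control mice among long fragments (SD, n = 3 each; limma, adjusted p = 0.679 and 0.00215). The part of other cell types in the levels of the gut factors was not tested.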

How the data were processed

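Per the labels' protocols, genomic DNA was cut with MspI, taken from a gel as a short and a long size class, bisulfite-converted, amplified and sequenced on an Illumina Genome Analyzer. Per the file headers, the authors deposited methylation as a fraction from 0 to 1, averaged over CpGs for each gene and each RefSeq promoter, without read counts. Depth is therefore unknown, and levels carry no counting interval. For aligner, build, promoter window and coverage filter, nothing is given in the sources used here.

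Fractions were turned into percent. Each of the 5 tested genes had 1 listed promoter, so gene and promoter values were equal. Genes in all 6 libraries of a fraction were fitted with limma 3.58.1 in R 4.3.3, induced against control, 3 separate mice each, with Benjamini-Hochberg adjustment over all genes of the fraction; the script was tested on simulated data. Long and short changes were compared over the 5309 genes listed in every library, taking the mouse as random block (consensus correlation 0.0674). At most 2.53% of values above 0 were identical between libraries of the same fraction. List members were matched by symbol or by current RefSeq symbol (GRCm38.p6; 99.8% of gene IDs matched), which also gave neighbours. The libraries of a mouse come from the same animal by design. Deviations of its short and long library from the group means had correlations across genes of 0.0559 to 0.613. Some libraries of different number correlated more. Control short 1 reached 0.314 with long 3, against 0.294 with long 1, and induced short 2 reached 0.0634 with long 1, against 0.0559 with long 2.

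Genes, lists and tests were chosen with earlier results of these data known. Besides the 8 genes, the text names up to 4 genes per list and fraction with the largest absolute change, and others where stated; genes resembling a called member were to be named, and no member was called. Alternatives were an arcsine scale, a looser presence filter, a variance trend, a replicate block, 1 fit over both fractions and leaving out each mouse. Summaries used Python 3.11.15, numpy 2.4.6 and pandas 2.3.3, and figures matplotlib 3.10.9.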

Additional observations from a re-analysis of the deposited data

How the results depend on the processing

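Of 110 alternative values for the 5 genes, 4 passed the threshold and none of the 7 with a changed sign did. The change of Sox9 among long fragments passed on the arcsine scale (0.137 on that scale) and in 1 fit over both fractions (2.09 points), and leaving out each mouse gave 1.505 to 2.54 points. The same omission gave 0.15 to 0.35 points for Klf4 among short fragments, -0.17 to 0.0733 for Cdx2 among short and -0.74 to 0.0183 among long, -0.65 to 0.0367 for Cdx1 among long, -0.065 to 0.57 for Klf4 among long and -0.0033 to 0.40 for Klf5 among long fragments, and -0.442 to 0.113 for Lck and -0.0167 to 0.193 for Gata6 among short fragments, -1.70 to 1.07 for Actl7b among short, and -0.85 to 9.745 for Cdx4 and -2.37 to 7.36 for Klf2 among long fragments. For these the cause was not tested. The count of genes called was 1575 in the 1 fit over both fractions, which tested 5309 genes, against 2773 of 10027 among short fragments. Leaving out each mouse gave 885 to 1528 genes among long fragments, with fewer samples in the fit.

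With the replicate block the counts were 2114 among short and 652 among long fragments, and none of the 5 tested genes was called. Same-numbered induced and control mice share only a number: their deviations had correlations of -0.0499 to 0.0736 among short and 0.00102 to 0.0366 among long fragments, and not every sample correlated best with its own number. Without read depth, levels near 0% cannot be separated from counting error.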
